A study of Mus musculus with 240 samples.

Results

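Microglia and macrophages in diseased brain raise a characteristic group of genes, and 10 of them are described here: Trem2, Tyrobp, Cd68, Itgax, Gpnmb, Lgals3, Apoe, Lpl, Spp1 and Mrc1. They were taken by gene symbol from a table of 34623 mouse genes, and each symbol matched 1 row. The rule uses gene names and no measured value, but the 10 genes were chosen with earlier results of these data known. Levels come from RNA of laser-captured brain cells in a mouse model of glioma with 240 libraries in all. CKO animals are labelled Trp53-/- Nf1-/- (loss of the tumour suppressors p53 and neurofibromin), and WT animals are labelled wild-type. All groups are timed in days after the start of tamoxifen (dpi), the wild-type groups included, and all bulk titles carry the mark tdTpositive. The labels name neither the driver of recombination nor the age of the animals.

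Bulk libraries cover CKO at 12 dpi (7 animals), WT at 12 dpi (5), CKO at 90 dpi (7), WT at 90 dpi (5), WT at 150 dpi (6) and tumours at 150 dpi (7). Tumours carry the CKO genotype and are labelled as tumour cells, whereas the source of every other sample is given as oligodendrocyte precursor cells (OPCs). Tumours therefore differ from WT animals of the same time in genotype and in tissue. Small libraries exist only for CKO animals: 112 libraries of 10 captured cells each and 80 pool-and-split controls, which measure technical noise on pooled material, both at 12 and 90 dpi. Each small library belongs to 1 of 4 sets per time and kind, given by sex and a number in its title. What that number stands for is not stated, so p-values over sets cover only the spread between these sets.

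Trem2 is a lipid-sensing receptor of microglia and macrophages that signals through Tyrobp (DAP12), an adaptor with an activation motif that recruits the kinase Syk. In mouse models of neurodegeneration this pair is needed for microglia to pass from a homeostatic state, marked by genes such as P2ry12 and Tmem119, to a disease-associated state marked by Apoe, Lpl, Itgax, Cst7 and Clec7a. Gpnmb, Spp1 and Lgals3 are raised in the same state and in macrophages that enter gliomas, Cd68 marks lysosomes of phagocytes, and Mrc1 is the mannose receptor of macrophages at the brain borders and of alternatively activated macrophages. Some of these genes have other sources in brain. Apoe is abundant in astrocytes, Lpl is expressed by OPCs and neurons, and Gpnmb and Spp1 can be made by tumour cells.

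Bulk libraries held 93694 to 23199230 counts, 10-cell libraries 1639385 to 6489275 and pool-and-split libraries 1906783 to 5160788. WT animal 21167 at 90 dpi held the lowest total, at which 1 count is worth 9.48 CPM (counts per 1000000, scaled by trimmed mean of M values), so its values for these genes rest on 0 to 3 counts except for Apoe. Nf1 was measured at 191 ± 16.1 CPM in CKO at 12 dpi against 312 ± 41.2 in WT and at 214 ± 41.1 in tumours against 301 ± 42.4 in WT (mean ± SD, n = 7, 5, 7 and 6; edgeR adjusted p = 0.092 and 0.0035). Trp53 was at 31.4 ± 3.70 CPM in CKO at 12 dpi against 32.3 ± 8.78 in WT. In tumours it was at 44.3 ± 18.0 CPM against 26.0 ± 8.24 in WT (mean ± SD, same animals). Its level in these counts thus does not show the labelled loss. OPC markers summed to 2967 to 5811 CPM in the 30 animals without tumours, beside 6736 to 15685 CPM for neuron markers, and to 5447 to 15253 CPM in tumours beside 282 to 1517 CPM. Homeostatic microglia markers were detected in every bulk group (305 to 505 CPM over 16 genes without tumours). In bulk material fewer cells of a type and less RNA per cell cannot be told apart.

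In tumours, 7 of the 10 genes were higher than in WT of the same time and 9 of 10 were higher than in CKO at 90 dpi. Before tumours, at 12 and 90 dpi, 0 of 10 passed in any comparison. Over all 16349 genes tested, 24.3% were called higher and 21.9% lower in tumours than in WT, and 26.4% and 22.6% against CKO at 90 dpi. A call is an adjusted p under 0.05 in edgeR's quasi-likelihood test with Benjamini-Hochberg adjustment over all genes and sex as a covariate. The median log2 change of the 10 genes was 2.16 against WT (0.06 over all genes) and 2.34 against CKO (0.12 over all genes). The 2 comparisons share the tumours. All 10 genes passed the filter on low counts, but Itgax reached 1 CPM in 1 animal without a tumour and Lgals3 likewise, so these 2 genes entered the fit through the tumours. Their calls are therefore no support for the counts of 7 and 9 of 10. Their changes also lie above both medians of the 10 genes and raise them.

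In 3 of 10 genes (Tyrobp, Itgax and Lgals3) every tumour lay above every WT animal at 150 dpi, against 6.72% of all genes. In 4 of 10 (Cd68 in addition) every tumour lay above every CKO animal at 90 dpi, against 6.77% of all genes. Itgax and Lgals3 stand in both counts but entered the fit through the tumours, so they are no support for them. Apart from these, Tyrobp remained against WT, and Tyrobp and Cd68 against CKO.

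**Figure D1:**
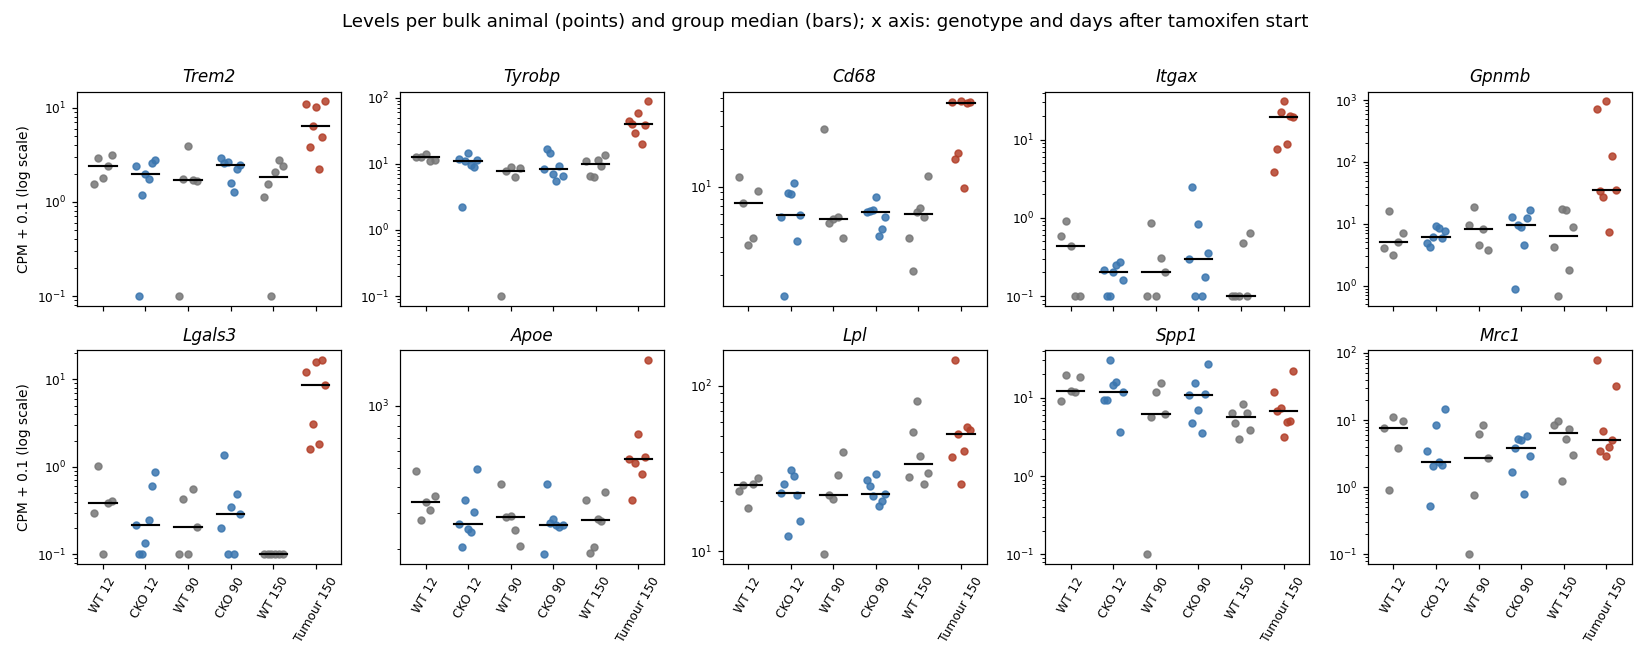
Level of each of the 10 genes in each bulk animal, as CPM plus 0.1 on a log axis; points are animals, bars are group medians and groups run from WT at 12 dpi to tumours at 150 dpi. Tyrobp, Itgax and Lgals3 in the 7 tumours lie above all 30 other animals, whereas Spp1 overlaps in all groups.

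The signalling pair rose together. Trem2 (ENSMUSG00000023992, chr17:48346401-48354147, plus strand, GRCm38) was measured at 2.15, 6.23 and 11.6 CPM in tumours as lowest, median and highest, at 0, 1.72 and 2.67 CPM in WT at 150 dpi and at 1.18, 2.37 and 2.84 CPM in CKO at 90 dpi. The lowest tumour (21256) overlapped with both groups and the other tumours did not. The log2 change was 2.10 (SE 0.47, edgeR adjusted p = 0.000312) against WT and 1.74 (SE 0.42, adjusted p = 0.00074) against CKO. Tyrobp (ENSMUSG00000030579, chr7:30413760-30417585, plus strand) reached 19.8, 40.1 and 87.6 CPM in tumours against 6.23, 9.99 and 13.3 CPM in WT and 5.30, 8.33 and 16.8 CPM in CKO at 90 dpi. All 7 tumours were above all 30 other animals. Its log2 change of 2.22 (SE 0.32, edgeR adjusted p = 5.3e-07) against WT was close to that of its receptor, and against CKO it was 2.24 (SE 0.30, adjusted p = 1.1e-07).

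Phagocyte markers rose to unequal extents. Cd68 (ENSMUSG00000018774, chr11:69664213-69666153, minus strand), a lysosomal glycoprotein, was at 9.68, 45.6 and 47.2 CPM in tumours, at 2.03, 5.96 and 12.1 CPM in WT and at 3.92, 6.18 and 8.11 CPM in CKO. Of the 7 tumours, 4 lay close together at 45.6 to 47.2 CPM and the other 3 lay at 18.2 CPM or less, of which 1 was inside the range of WT. The log2 change was 2.40 (SE 0.42, edgeR adjusted p = 1.2e-05) against WT and 2.53 (SE 0.39, adjusted p = 1.5e-06) against CKO. Itgax (ENSMUSG00000030789, chr7:128129547-128150657, plus strand) encodes the integrin CD11c of dendritic cells and disease-associated microglia, and 4 of 6 WT animals at 150 dpi held no count. Its levels were 3.73, 19.4 and 30.8 CPM in tumours, with 0.545 CPM as the highest WT animal and 2.38 CPM as the highest CKO animal at 90 dpi. The fitted log2 change was 5.89 (SE 0.90, edgeR adjusted p = 1.2e-06) against WT and 4.95 (SE 0.75, adjusted p = 1.0e-06) against CKO. It was 6.95 without WT animal 22064 and, against CKO, 6.45 without CKO animal 20647.

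By fitted log2 change, Gpnmb and Lgals3, like Itgax, rose by more than the other members. Medians did not rank Gpnmb above Cd68: they were 35.3 CPM in tumours and 6.36 CPM in WT for Gpnmb, and 45.6 and 5.96 CPM for Cd68. Lgals3 (ENSMUSG00000050335, chr14:47367751-47386160, plus strand), the secreted lectin galectin-3, had no count in any of the 6 WT animals at 150 dpi and reached 1.48, 8.55 and 16.7 CPM in tumours. Taking 3 counts over the WT group as the limit, which is 0.0802 CPM, the tumour mean was at least 105-fold higher and the lowest tumour at least 18.5-fold higher. The test gave an edgeR adjusted p of 3.4e-06, and the fitted change depends on the prior count because the WT group is at 0. Against CKO at 90 dpi, at 0, 0.193 and 1.28 CPM, the log2 change was 4.64 (SE 0.84, adjusted p = 3.1e-05), and 5.71 without CKO animal 20647. Lgals3 is also made by other phagocytes and by tumour cells, so its source is not given by these values.

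Gpnmb (ENSMUSG00000029816, chr6:49036546-49070929, plus strand), a transmembrane glycoprotein of lipid-laden phagocytes and of pigment cells, was at 7.31, 35.3 and 952 CPM in tumours. WT animals at 150 dpi held 0.580, 6.36 and 17.0 CPM and CKO animals at 90 dpi 0.795, 9.47 and 16.4 CPM. Tumours 16844 and 16713 stood apart at 951.8 and 708.9 CPM, tumour 21349 had 124 CPM, and tumour 21256 had 7.31 CPM, inside the range of the animals without tumours. The log2 change was 5.04 (SE 0.89, edgeR adjusted p = 1.5e-05) against WT and 4.86 (SE 0.81, adjusted p = 5.6e-06) against CKO. Without tumour 16844 these were 3.95 and 3.92, and without tumour 16713 the value against CKO was 4.25, all still called.

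The lipid genes differed from each other. Apoe (ENSMUSG00000002985, chr7:19696109-19699188, minus strand), the main lipid carrier of brain, was present in every animal and reached 349, 549 and 1682 CPM in tumours. WT animals at 150 dpi held 190, 278 and 380 CPM and CKO animals at 90 dpi 188, 262 and 416 CPM. One tumour (16839, at 349 CPM) overlapped with both groups, and tumour 21354 lay far above the next at 733 CPM. The log2 change was 1.32 (SE 0.27, edgeR adjusted p = 9.4e-05) against WT and 1.35 (SE 0.25, adjusted p = 3.2e-05) against CKO, or about 2.5-fold. Lpl (ENSMUSG00000015568, chr8:68880491-68907448, plus strand), which releases fatty acids from lipoproteins, was at 25.5, 50.9 and 143 CPM in tumours, 25.4, 33.4 and 81.0 CPM in WT at 150 dpi and 18.7, 22.0 and 29.0 CPM in CKO at 90 dpi. Its change against WT was 0.53 (SE 0.27, edgeR adjusted p = 0.11), and against CKO it was called at 1.24 (SE 0.26, adjusted p = 0.00017). Against WT, Lpl passed without tumour 16844 (0.72, adjusted p = 0.019) and without WT animal 21592 (0.76, adjusted p = 0.020).

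Spp1 (ENSMUSG00000029304, chr5:104435118-104441050, plus strand), the secreted phosphoprotein osteopontin, did not pass in either tumour comparison. It was measured at 3.05, 6.60 and 21.8 CPM in tumours, 2.83, 5.50 and 8.22 CPM in WT at 150 dpi and 3.48, 10.7 and 26.8 CPM in CKO at 90 dpi, with overlap throughout. The log2 change was 0.67 (SE 0.47, edgeR adjusted p = 0.25) against WT and -0.37 (SE 0.43, adjusted p = 0.51) against CKO, and 0 of 7 tumours exceeded the highest of the 30 other animals (30.5 CPM). Mrc1 (ENSMUSG00000026712, chr2:14229392-14332057, plus strand) was high in 2 tumours, 16713 at 79.0 CPM and 21354 at 32.4 CPM, and between 2.80 and 6.79 CPM in the other 5. WT animals at 150 dpi held 1.13, 6.23 and 9.58 CPM, so the median tumour (4.95 CPM) lay below the median WT animal. The log2 change was 1.62 (SE 0.77, edgeR adjusted p = 0.081) against WT and 2.45 (SE 0.72, adjusted p = 0.0051) against CKO, where it was lost without tumour 16713 (1.36, adjusted p = 0.092). Against WT, Mrc1 passed without tumour 16839, 16844 or 21256 (1.85 to 1.91, adjusted p = 0.041 to 0.048).

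**Figure D2:**
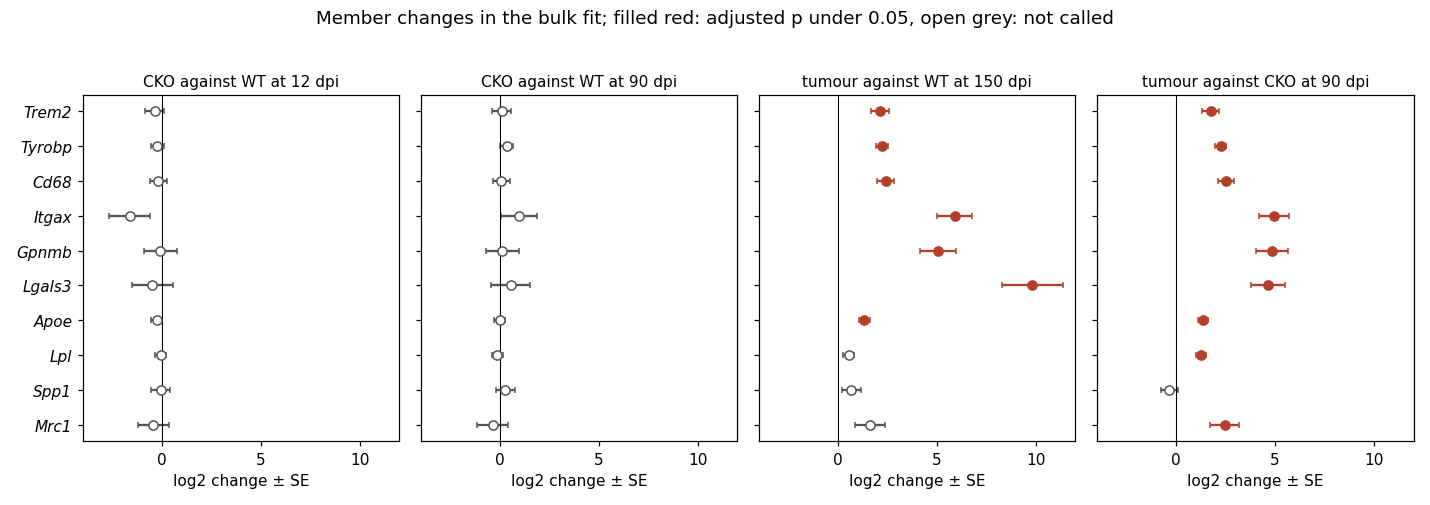
Log2 change with its standard error for the 10 genes in 4 bulk comparisons from 1 fit; filled red points passed an adjusted p of 0.05 and open grey points did not. In CKO against WT at 12 and 90 dpi 0 of 10 genes passed, and in tumours 7 of 10 passed against WT and 9 of 10 against CKO.

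Since several members rose together in tumours, the 250 bases before their transcription starts were searched on both strands for 3 short words: the AP-1 word TGANTCA, the PU.1 word GAGGAA and the E-box word CATGTG, which AP-1, PU.1 and MiT/TFE factors are known to bind in myeloid cells. RefSeq start sites (GRCm38.p6) gave 11 windows for 8 of the genes, and Tyrobp and Lpl had no entry. The AP-1 word stood in 3 of 11 windows (6.75% of 32851 windows of the same length over all genes), the PU.1 word in 6 of 11 (23.3%) and the E-box word in 1 of 11 (12.3%). Windows are not genes: Apoe and Spp1 have more than 1 each, and Apoe holds the PU.1 word in more than 1. That word also stands in Spp1 and Mrc1, which did not pass against WT. The 3 windows with the AP-1 word, those of Cd68, Itgax and Trem2, are shown with the AP-1 and PU.1 words in capitals (TTCCTC is the PU.1 word on the other strand). The words do not overlap here. A word is a match of letters and not a measured binding site.
Cd68, chr11:69666171-69666420, minus strand: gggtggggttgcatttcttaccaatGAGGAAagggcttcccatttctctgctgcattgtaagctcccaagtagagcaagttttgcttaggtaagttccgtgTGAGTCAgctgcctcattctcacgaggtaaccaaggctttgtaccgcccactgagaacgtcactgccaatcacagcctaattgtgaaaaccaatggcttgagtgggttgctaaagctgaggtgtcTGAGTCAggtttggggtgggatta
Itgax, chr7:128129300-128129549, plus strand: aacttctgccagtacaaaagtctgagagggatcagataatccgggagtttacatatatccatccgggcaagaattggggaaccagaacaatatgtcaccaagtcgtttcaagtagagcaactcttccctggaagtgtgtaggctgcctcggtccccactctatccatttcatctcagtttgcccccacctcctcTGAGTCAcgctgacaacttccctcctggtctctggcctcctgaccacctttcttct
Trem2, chr17:48346151-48346400, plus strand: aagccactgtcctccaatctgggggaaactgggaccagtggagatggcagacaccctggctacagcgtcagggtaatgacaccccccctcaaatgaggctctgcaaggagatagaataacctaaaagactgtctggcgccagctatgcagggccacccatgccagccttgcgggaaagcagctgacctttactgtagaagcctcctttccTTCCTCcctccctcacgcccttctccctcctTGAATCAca
The AP-1 word lies 149 to 143 and 24 to 18 bases before the start in Cd68, 56 to 50 bases before it in Itgax and 9 to 3 bases before it in Trem2. Cd68 has the PU.1 word at 225 to 220 and Trem2 at 40 to 35 bases before the start, and the Itgax window has none.

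Tumours did not share 1 pattern. The number of genes above all 30 animals without tumours was 8 of 10 in tumours 16713 and 21354, 7 in 16844 and 21349, 6 in 16840, 5 in 16839 and 3 in 21256. The share of all genes above these 30 animals was not computed for single tumours, so whether such counts are unusual is not known. In tumour 21256 the 3 genes were Tyrobp, Itgax and Lgals3. Gpnmb had the widest range over tumours, with the highest tumour at 130 times the lowest, followed by Mrc1 (28.2 times) and Lgals3 (11.3 times), and Tyrobp the narrowest at 4.43 times. The highest tumour was 21354 for Apoe, Trem2, Tyrobp and Spp1, 16844 for Gpnmb, Itgax and Cd68, 16713 for Mrc1, 16839 for Lpl and 21349 for Lgals3. High Gpnmb and high Mrc1 thus coincided in tumour 16713 and not in 16844, where Mrc1 was the lowest of the 7 at 2.80 CPM.

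Each tumour had 2 libraries, and whether they share the captured cells is not stated. The ratio between libraries of 1 tumour, in CPM of each library's total, had a median of 1.19 for Gpnmb and 1.03 to 2.33 over the 7 tumours, against the 130-fold range between tumours. For Tyrobp the median ratio was 1.24, for Apoe 1.09, for Cd68 1.46 and for Mrc1 1.93. Lgals3 differed most, by 16.9 times in tumour 16840 (0.313 and 5.29 CPM), and Itgax by 3.59 times in tumour 16713.

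**Figure D3:**
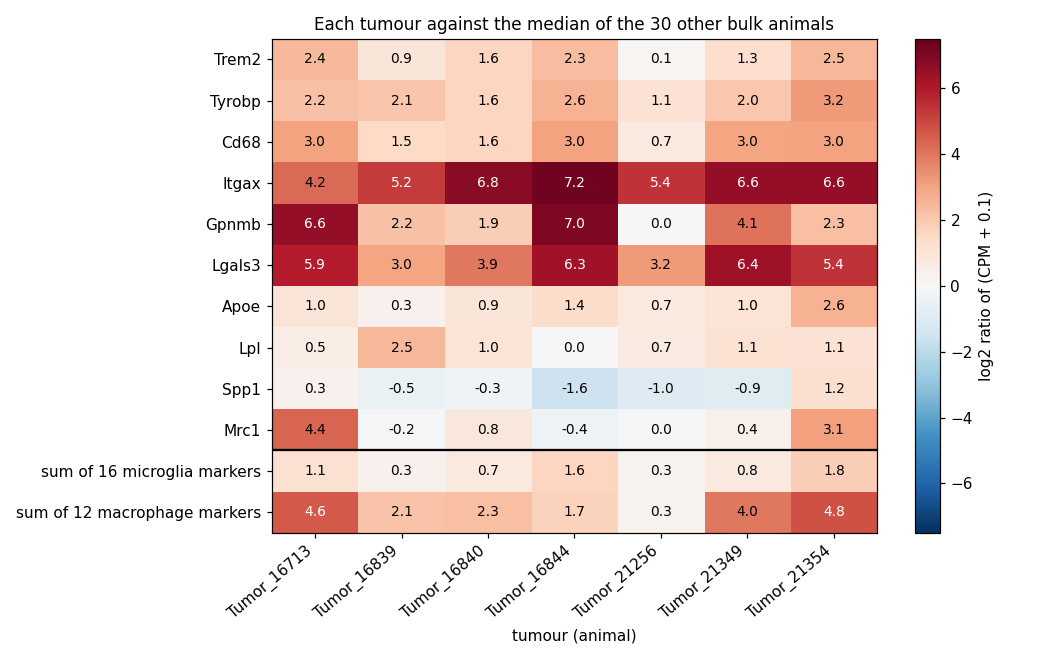
Each of the 7 tumours (columns) against the median of the 30 other bulk animals for the 10 genes and 2 summed marker lists, as log2 ratio of CPM plus 0.1; red is higher and blue lower. Tumours 16713 and 16844 are highest for Gpnmb, tumours 16713 and 21354 for Mrc1, and the Spp1 row is below 0 in 5 of 7 tumours.

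Markers of microglia and macrophages moved with these genes. Of 16 homeostatic microglia markers, 13 were called higher and 1 lower in tumours than in WT (median log2 change 1.80), with the complement genes C1qa (2.95, SE 0.41, edgeR adjusted p = 2.4e-07), C1qb (2.94) and C1qc (2.91) highest. The 1 gene that fell was Sall1, a transcription factor of microglia that is also found in neural cells (-0.99, SE 0.20, adjusted p = 8.9e-05). Their sum was 454 to 1356 CPM in tumours and at most 505 CPM elsewhere, highest in tumour 21354 and lowest in tumour 21256. Of 11 monocyte and border macrophage markers tested of 12, 5 were called higher and 0 lower against WT (median 1.68), led by Cd14 (3.98), Lyz2 (3.84) and Fcgr1 (2.89), and 7 against CKO (median 2.36), led by Lyz2 (4.56), Ms4a7 (3.81) and Ccr2 (3.24). Their sum ranged from 26.5 CPM in tumour 21256 to 544 CPM in 16713 and 618 CPM in 21354, the 2 tumours high in Mrc1, with 345 CPM in 21349, where Mrc1 was at 4.95 CPM, against at most 44.7 CPM in the other 30 animals. Plac8 was at 0 in all 3 WT groups. How far cell numbers account for the rise of the 10 genes was not tested.

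To set the genes beside microglia markers, each was divided by the summed CPM of 15 homeostatic markers in the same animal. The sum holds C1qa, C1qb and C1qc, which rose most of these markers against WT (2.91 to 2.95). It is therefore not a measure of the amount of microglia RNA. Sall1 was left out of the sum because it fell, a choice made after its values were seen. This sum was 355, 555 and 1279 CPM in tumours as lowest, median and highest, and 167, 192 and 226 CPM in WT at 150 dpi. Trem2 then had a median of 0.963% in tumours and 0.824% in WT, within ranges of 0.605 to 1.38% and 0 to 1.45%. Apoe had a lower median in tumours (95.7%, range 68.8 to 132%) than in WT (140%, range 95.5 to 198%), with overlap. Tyrobp had 5.57% (5.26 to 11.0%) and 5.08% (3.20 to 6.24%), and Cd68 4.47% (2.72 to 9.14%) and 3.10% (1.02 to 5.32%), both with overlap.

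Itgax and Lgals3 were the 2 genes whose ratio in every tumour lay above every WT animal at 150 dpi. Both entered the fit through the tumours, so this separation is no support of its own. The Itgax ratio was 0.468, 2.48 and 4.00% in tumours and at most 0.241% in WT, and the Lgals3 ratio 0.407, 0.669 and 3.35% against 0. Both overlapped with CKO at 90 dpi through animal 20647 (0.959 and 0.516%). Gpnmb ran from 2.06 to 90.1% in tumours with a median of 9.13% and from 0.291 to 10.2% in WT. Spp1, by contrast, was at 1.33% in tumours and 2.89% in WT as medians, and Mrc1 at 1.09% and 3.18%. Lpl was at 9.18% and 16.6%.

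**Figure D4:**
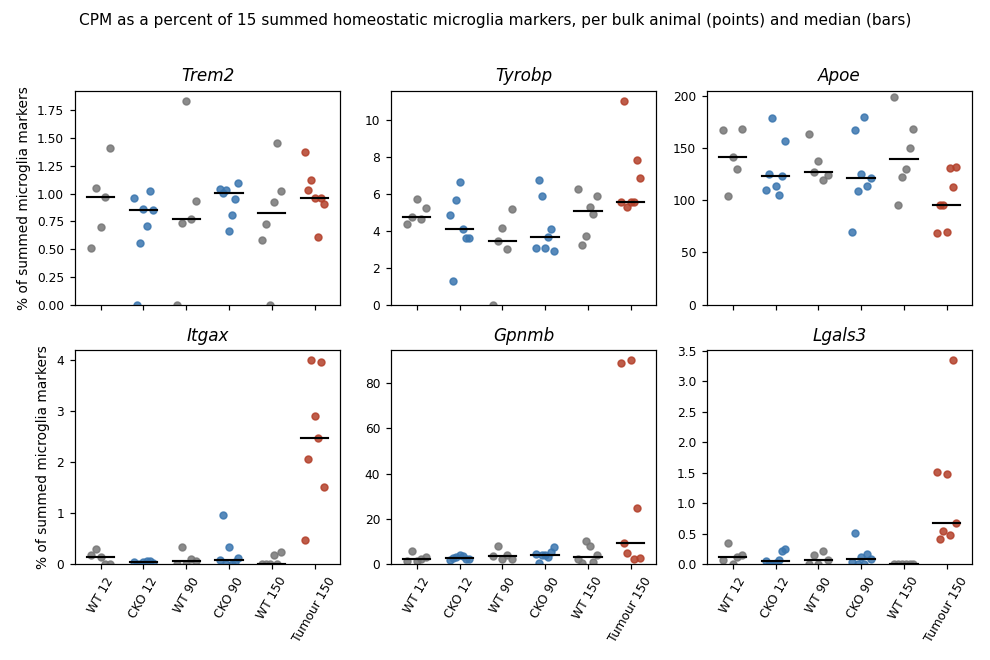
CPM of 6 of the genes as a percent of the summed CPM of 15 homeostatic microglia markers in the same bulk animal; points are animals, bars are medians. Trem2 overlaps in all groups, whereas all 7 tumours lie above all 6 WT animals at 150 dpi for Itgax and Lgals3.

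Partners of the 10 genes were described from lists of known genes. Of 20 other disease-associated microglia genes, 19 were tested, 16 were called higher and 1 lower against WT (median 1.97), and 14 and 0 against CKO (median 1.64). Clec7a, the receptor dectin-1, rose by 6.49 (SE 1.05, edgeR adjusted p = 3.7e-06), the cystatin Cst7 by 5.26 (SE 1.03, adjusted p = 6.5e-05) and the chemokine Ccl3 by 5.06 (SE 1.01, adjusted p = 8.5e-05), with WT medians of 0, 0.269 and 0 CPM. Ferritin heavy chain Fth1 fell by 0.61 (SE 0.21, adjusted p = 0.015). Against CKO the largest rises were Clec7a (4.59), Cd52 (4.04) and Cst7 (3.90). The medians of Clec7a and Cst7 in CKO at 90 dpi were 0.548 and 0.512 CPM. Genes this low outside tumours may have entered the fit through the tumours, as Itgax and Lgals3 did. In this and the other lists, their calls are therefore no support for the counts, and their fitted changes depend on groups near 0.

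Of 10 genes listed with Trem2 and Tyrobp signalling, 9 were tested. Called higher and lower were 8 and 1 against WT (median 2.56) and 8 and 0 against CKO (median 2.29). The part of myeloid cell content in these values was not tested. The phosphatase Ptpn6 (SHP-1) rose by 3.26, the kinase Btk by 3.26 and the myeloid transcription factor Spi1 (PU.1) by 2.75, while the adaptor Card9 fell by 1.35 (SE 0.45, edgeR adjusted p = 0.013). Against CKO, Syk (3.22), Lat2 (3.11) and Btk (2.98) rose most. Btk had medians of 0 CPM in WT and 0.160 CPM in CKO, so the limit given for Clec7a applies to it. Of 8 binding partners of osteopontin and galectin-3, 7 of them receptors or integrin subunits, 5 were called higher against WT (median 2.13) and 7 against CKO (median 1.75), with 0 lower. They were led by Cd44 (5.47, SE 0.96, adjusted p = 1.4e-05), a hyaluronan and osteopontin receptor that tumour cells can also express, Lgals3bp (4.58), a secreted glycoprotein that binds galectin-3, and the integrin Itgb3 (2.79) against WT. Against CKO the leading genes were Cd44 (4.84), Lgals3bp (3.39) and Itgb1 (1.85).

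Lipid uptake and efflux partners were mixed. Of 14 tested of 15, 6 were called higher and 3 lower against WT (median 0.35) and 7 and 3 against CKO (median 0.43). The scavenger receptor Cd36 rose by 4.04 (SE 1.08, edgeR adjusted p = 0.0023), the lipid-droplet protein Plin2 by 1.84 and the cholesterol transporter Npc2 by 1.03. The Apoe receptors Lrp8, Sorl1 and Vldlr, which neurons express, fell by 2.07, 1.06 and 0.72. Of 6 alternative activation genes tested of 10, Msr1, a scavenger receptor, and Il4ra were called higher against WT (7.68 and 3.13, list median 1.46) and Msr1 and Mgl2 against CKO (5.54 and 2.77, list median 1.12). The WT median of Msr1 was 0 CPM, so the limit given for Clec7a applies to it as well. The other 7 genes of this list, Arg1 among them, were not called or were too low to test.

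Other cell types also shifted in tumours. Called higher and lower against WT were 11 and 0 of 14 OPC markers (median 1.41), 1 and 6 of 10 oligodendrocyte markers (-1.85), 4 and 3 of 10 astrocyte markers (0.20), 0 and 9 of 10 neuron markers (-3.42), 0 and 2 of 10 endothelial markers (-0.55) and 0 and 5 of 6 pericyte markers (-1.54). Among lymphocyte markers 1 of 6 tested (Cd4) was called higher, and the only neutrophil marker tested, Csf3r, which microglia also express, was higher (2.30). Against CKO at 90 dpi the counts were 11 and 0 OPC (median 1.29), 0 and 7 oligodendrocyte (-2.37), 4 and 3 astrocyte (-0.04), 0 and 10 neuron (-3.67), 1 and 0 endothelial (0.15), 0 and 1 pericyte (-0.12), 4 and 0 lymphocyte (2.74) and 1 and 0 neutrophil markers (2.23). Lrp8, Sorl1, Vldlr and Lpl have sources among the neurons whose markers fell, and the part of that fall in their values was not tested.

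Before tumours, no difference between genotypes passed for the 10 genes. At 12 dpi 0.0183% of all genes were called between CKO and WT, and 0 of these 10. Their changes ran from -1.65 (Itgax, SE 1.02) to -0.07 (Spp1, SE 0.47), 10 of 10 below 0, with a median of -0.26 and edgeR adjusted p of 0.9998 for each. At 90 dpi 0.0489% of all genes and 0 of 10 were called. The changes ran from -0.39 (Mrc1, SE 0.79) to 0.95 (Itgax, SE 0.91), 7 of 10 above 0, with a median of 0.09 and adjusted p of 1. CKO animal 20647 carried the upper end: without it Itgax was -0.48 and Lgals3 went from 0.54 to -0.58, and 5 of 10 were above 0. For Tyrobp the 5 WT animals at 12 dpi were at 11.0, 11.3, 12.6, 12.7 and 13.7 CPM and the 7 CKO animals at 2.09, 11.0 and 14.7 CPM as lowest, median and highest. At 90 dpi its WT animals were at 0, 6.27, 7.74, 8.60 and 8.70 CPM, where the value of 0 belongs to the shallow animal 21167, and CKO animals at 5.30, 8.33 and 16.8 CPM.

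Over time in CKO, from 12 to 90 dpi, 0% of all genes and 0 of 10 members were called (696 genes at an unadjusted p under 0.05, and 2 called by DESeq2). Itgax had the largest change, 2.11 (SE 0.85, unadjusted p = 0.019, edgeR adjusted p = 1.00), and 0.65 without CKO animal 20647. In WT, 0.00612% of all genes were called from 12 to 90 dpi and 0.0183% from 90 to 150 dpi, with 0 of 10 members in each. Lgals3 went from 0 to 0.463 CPM in WT at 90 dpi to 0 in all 6 animals at 150 dpi (unadjusted p = 0.024, adjusted p = 0.55). The change in genotype effect from 12 to 90 dpi was called for 0% of all genes and 0 of 10 members (589 genes at an unadjusted p under 0.05, and 6 called by DESeq2). From 90 to 150 dpi, with tumours as the later mutant group, it was called higher for 14.2% and lower for 15.8% of all genes.

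In that last comparison 7 of the 10 were called higher, with a median of 2.02 (0.04 over all genes): Tyrobp (1.90, SE 0.45, edgeR adjusted p = 0.0014), Gpnmb (4.94, SE 1.15, adjusted p = 0.0011), Cd68 (2.34), Apoe (1.34), Trem2 (2.02), Itgax (4.95) and Lgals3 (9.29, a fitted value with a group at 0). Lpl (0.67, adjusted p = 0.22), Mrc1 (2.01, 0.17) and Spp1 (0.40, 0.71) were not. Itgax and Lgals3 entered the fit through the tumours, so their calls are no support for the count of 7, and their changes raise the median. The call was lost for Itgax without WT animal 22184 (3.65, adjusted p = 0.056) and for Trem2 without WT animal 22185 (1.72, adjusted p = 0.060). Gpnmb was 3.83 without tumour 16844 and 4.33 without WT animal 22184. Itgax was 6.39 without CKO animal 20647 and 6.07 without WT animal 22064, and Lgals3 10.4 without CKO animal 20647 and 8.57 without WT animal 22254. DESeq2 gave 5.62 for Itgax and 7.71 for Lgals3, and the deepest library of each animal gave 8.43 for Lgals3, all still called.

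CKO animal 20647 stood apart at 90 dpi. It had the highest Apoe (416 CPM, others 188 to 279), Tyrobp (16.8 CPM, others 5.30 to 14.6), Itgax (2.38 CPM, others 0 to 0.737) and Lgals3 (1.28 CPM, others 0 to 0.384) of its group, and the lowest Gpnmb (0.795 CPM, others 4.51 to 16.4). Its homeostatic microglia markers summed to 369 CPM, inside the range of the others (305 to 409 CPM). It also had the highest sums of neuron (15685 CPM, others 8072 to 9863) and astrocyte markers (7101 CPM, others 2433 to 3447) and the lowest sum of OPC markers (3109 CPM, others 3604 to 5332). Its 2 libraries differed, here in CPM of each library's total. One library held Itgax at 4.03, Lgals3 at 2.17, Mrc1 at 6.31, Spp1 at 7.76 and Gpnmb at 1.34 CPM, and the other held 0 of each. Tyrobp was 26.8 CPM in the former and 1.58 CPM in the latter, and Trem2 was 3.98 and 0.264 CPM. The homeostatic microglia markers summed to 597 and 27.4 CPM in the same order, the neuron markers to 8313 and 18599 CPM and the astrocyte markers to 3093 and 9105 CPM. The high Itgax, Lgals3 and Tyrobp of this animal thus came from 1 library, while Apoe was higher in the other (324 and 387 CPM). Whether both libraries are like captures from the same animal cannot be told from the deposited values, and the summed animal sets the highest Tyrobp, Itgax and Lgals3 of CKO at 90 dpi. The part of the mixed cell content in these values was not tested.

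The genes most like each member were found over the 36 bulk animals with at least 1000000 counts, as Pearson's r of log2 CPM centred on group means. These animals share their libraries and cell mixture, so r is a description. Trem2 was nearest to Itgb2 (0.83), Cmklr1 (0.83) and Trim30a (0.82), and Tyrobp to Atp5j2 (0.78), C1qc (0.77) and Dbi (0.77). Cd68 was nearest to Col16a1 (0.74), Tmem176a (0.72) and C1qc (0.72), Mrc1 to F13a1 (0.74), Pla2g4a (0.73) and Lyve1 (0.70), and Apoe to Gstm1 (0.84), Clu (0.78) and Sfxn5 (0.76). F13a1 and Lyve1 are markers of border macrophages, and Gstm1 and Clu are abundant in astrocytes. Itgax was nearest to Wsb2 (0.70), Lgals3 to Zfp324 (0.71), Gpnmb to Gtf3c1 (0.77), Lpl to Olfr1459 (0.77) and Spp1 to Ifnar2 (0.63). Itgax and Lgals3 were at 0 in 12 and 13 of the 30 animals without tumours, so outside tumours their r rests on few counts. Among the 10 genes themselves the 45 pairs ran from -0.49 (Apoe and Lpl) to 0.71 (Trem2 and Tyrobp) with a median of 0.26, and 5 pairs were above 0.5, Tyrobp with Cd68 (0.66) among them.

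In the small CKO libraries most of these genes were found in part of the libraries only. A gene was counted as detected with a count of at least 1. Among 56 10-cell libraries per time, Tyrobp was detected in 32 at 12 dpi and 48 at 90 dpi, Trem2 in 16 and 36, Cd68 in 16 and 31, Itgax in 3 and 14, Gpnmb in 10 and 16, Lgals3 in 7 and 19, Spp1 in 21 and 37, Mrc1 in 7 and 12 and Lpl in 45 and 50. Apoe was detected in all 56 at both times. In 2 of 10 genes, Spp1 (4 to 7 of 14 libraries per set at 12 dpi, 9 to 10 at 90 dpi) and Trem2 (3 to 5, and 6 to 13), every set at 90 dpi lay above every set at 12 dpi, against 14.7% of all genes. The median number of all genes detected per 10-cell library also rose, from 7550 to 10110, while the median total count was 4481274 at 12 dpi and 4041809 at 90 dpi, and the part of this in the detection of the members was not tested.

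Pool-and-split controls did not show the same step for each gene. Of 40 libraries per time, Tyrobp was detected in 30 and 29, Spp1 in 21 and 22, Mrc1 in 6 and 5, Trem2 in 8 and 21, Itgax in 2 and 8 and Lgals3 in 5 and 10. The median number of genes detected was 8691 and 8739 at the 2 times. Members detected per library had a median of 3.5 and 6 of 10 in 10-cell libraries and 4 and 5 of 10 in controls.

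**Figure D5:**
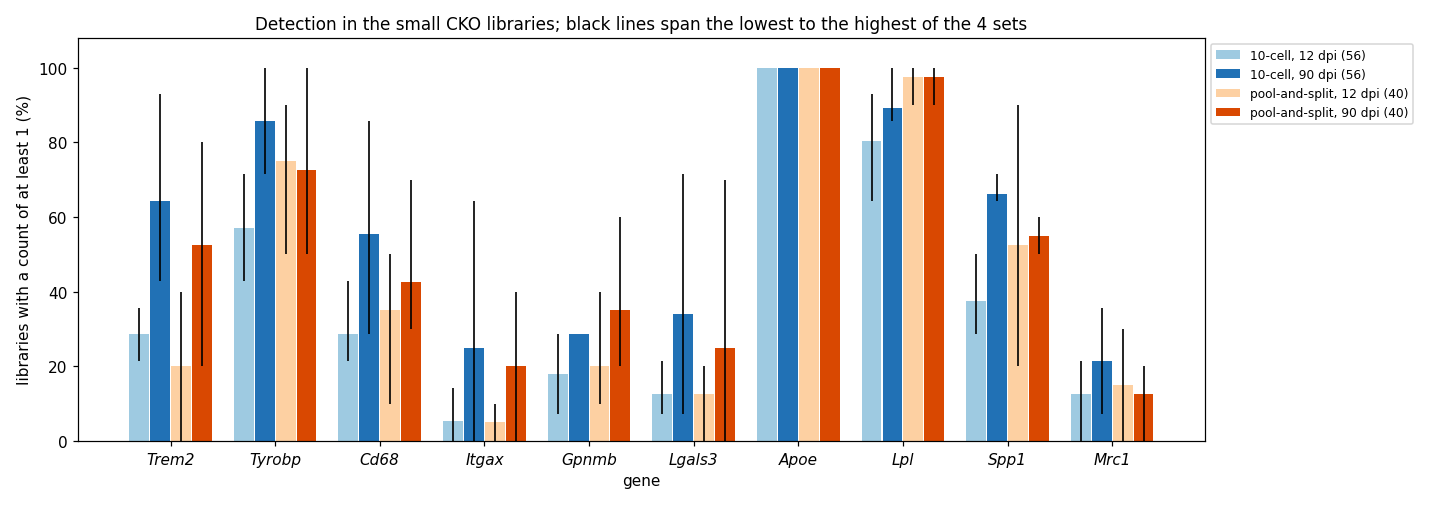
Percent of small CKO libraries with a count of at least 1 for each of the 10 genes, by kind of library and time (56 10-cell and 40 pool-and-split libraries per time); black lines span the lowest to the highest of the 4 sets. Apoe is at 100% in all 4 groups, and in 10-cell libraries the lines of the 2 times are apart for Trem2 and Spp1.

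Apoe was the 1 gene of 10 whose set level at 90 dpi lay above all sets at 12 dpi in both kinds of library, a pattern met by 3.19% of all genes in 10-cell sets and 3.44% in pool-and-split sets. Its library median was 1437 CPM at 12 dpi and 3252 CPM at 90 dpi in 10-cell libraries, and 1361 and 3972 CPM in controls. The sets ran from 1268 to 2671 and from 2723 to 4060 CPM in 10-cell libraries, and from 904 to 2463 and from 2500 to 4998 CPM in controls. The log2 change over sets was 0.73 (SE 0.23, unadjusted p = 0.010, edgeR adjusted p = 0.58) and 1.18 (SE 0.33, unadjusted p = 0.0053, adjusted p = 0.58), so neither passed. Bulk CKO libraries gave -0.11 (SE 0.25) for the same step. Across all genes 0% were called over 10-cell sets and 0% over pool-and-split sets, 0 of 10 members among them (1111 and 1127 genes at an unadjusted p under 0.05; DESeq2 called 326 and 593, and 0 members).

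For the rarer genes a few libraries carried the level. In 10-cell libraries at 12 dpi the 5 highest libraries held 76.1% of summed Spp1 CPM, 92.6% of Gpnmb and 84.7% of Trem2, against 27.8% for Apoe. Spp1 was detected in more 10-cell libraries at 90 dpi, yet its change over sets was -1.26 (SE 0.63, edgeR adjusted p = 0.70). Trem2 changed by 1.65 (SE 0.89, adjusted p = 0.72) and Gpnmb by 2.84 (SE 1.58, adjusted p = 0.72). The Gpnmb value was 0.61 without male set 1 at 90 dpi, and over all alternatives it ranged from 0.61 to 3.92 and that of Trem2 from 1.13 to 2.34. For Itgax sets at 0 left the fit without a usable error (SE 9.05).

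Shared detection in 10-cell libraries is given as a description, beside the share of all 56 libraries in which Tyrobp was detected, 57.1% at 12 dpi and 85.7% at 90 dpi. At 90 dpi Trem2 and Tyrobp were both detected in 34 libraries, 94.4% of the 36 with Trem2 and 70.8% of the 48 with Tyrobp, and at 12 dpi in 14 (87.5% of 16 and 43.8% of 32). Cd68 and Tyrobp shared 29 libraries at 90 dpi (93.5% of 31 and 60.4% of 48), and Tyrobp and the complement gene C1qb shared 46 (95.8% of 48 and 88.5% of 52). Over the 56 libraries at 90 dpi, Spearman's rho with the summed homeostatic microglia markers was 0.64 for Tyrobp, 0.50 for Trem2, 0.47 for Apoe, 0.45 for Cd68 and -0.14 for Gpnmb, and in the 40 controls 0.16 for Tyrobp and 0.06 for Trem2. These libraries share sets and depth, so rho is a description. The median sum of microglia markers was 290 CPM at 12 dpi and 654 CPM at 90 dpi in 10-cell libraries and 543 and 562 CPM in controls, while that of macrophage markers was 1.69 and 17.3 CPM and 5.26 and 12.8 CPM.

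Spread between 10-cell libraries was compared with that between controls as absolute deviations from the set median on the log2(CPM + 1) scale. Such deviations also depend on level and detection, so an excess does not by itself stand for differences beyond measurement noise. The test took the library as its unit and set as a covariate, so its p-values do not cover the spread between sets. It covered 3 members at 12 dpi and 6 at 90 dpi that were detected in at least 50% of libraries. Of these, 0 were called, against 0.0257% and 0.659% of all genes. Spp1 at 90 dpi had a mean deviation of 2.68 in 10-cell libraries and 1.82 in controls (difference 0.86, SE 0.37, unadjusted p = 0.022, limma adjusted p = 0.27). Its median level was 7.19 CPM in the former and 0.415 CPM in the latter, and the part of level in this difference was not tested. Apoe at 12 dpi had 0.94 and 0.61 (difference 0.33, SE 0.16, unadjusted p = 0.040, adjusted p = 0.50). Tyrobp had a difference of -0.11 (SE 0.41) at 90 dpi, so its spread in 10-cell libraries was not distinguishable from that of the controls.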

How the data were processed

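Levels were taken from 1 deposited table of 34623 genes, in expected counts that the authors made with RSEM and Bowtie2 on GRCm38 per the submitters' processing notes (versions not given in the sources used here). Per the labels' protocols, cells were captured by laser microdissection from sections of 10 µm (bulk) or 8 µm (small libraries). Bulk RNA went through T7-based linear amplification and small libraries through PCR, so the 2 kinds were not compared in level, and a count is not an independent molecule. The 10 members and all gene lists were chosen with earlier results of these data known.

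From these, 13.6% of values were not whole and were rounded, 92 spike-ins were left out, and libraries of 1 animal (11 animals had 2) or of 1 set were summed. Genes were filtered with filterByExpr (count minimum 10, total 15), scaled by trimmed mean of M values and tested with edgeR 4.0.16 (quasi-likelihood, all 37 animals in 1 fit, sex as covariate, Benjamini-Hochberg over all genes tested, threshold 0.05). Spread was tested with limma 3.58.1 on log2(CPM + 1), with the library as unit and set as covariate. DESeq2 1.42.0, R 4.3.3, Python 3.11.15 and pandas 2.3.3 were also used, and the fits were tested on simulated data. Alternatives were DESeq2, RLE size factors, other filters, no sex covariate, the 2 groups alone, the deepest library, other pseudocounts, a replicate block and leaving out each animal or set. Expected counts carry no interval of their own, so precision is given by the spread over animals or sets, and in the spread test over libraries.

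Genes named are the 10 members, from each list the 3 largest called rises and falls in the 2 tumour comparisons, and for each member the 3 genes most correlated with it. Not every gene this rule allows is printed. The lists are homeostatic microglia, monocyte and border macrophage, other disease-associated microglia, TREM2 and TYROBP signalling, alternative activation, lipid partners, osteopontin and galectin-3 binding partners, OPC, oligodendrocyte, astrocyte, neuron, endothelial, pericyte, lymphocyte and neutrophil genes.

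The numbers that pair sets across times by sex did not pair them: correlations of deviations from the time means ran from -0.04 to 0.02. Gene positions were identical in GENCODE M21.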

Additional observations from a re-analysis of the deposited data

Results flagged for a closer look

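Within groups of 4 to 7 animals or sets, 9 of 60 bulk groups and 11 of 40 groups of sets had a value separated from the rest by more than Dixon's 95% limit. Chance flags about 1 in 20 groups, and many set values are near 0. In CKO at 90 dpi, animal 20647 was apart for Apoe (416 CPM), Itgax (2.38 CPM) and Lgals3 (1.28 CPM). Among tumours, 21354 was apart for Apoe (1682 CPM), 16839 for Lpl (143 CPM) and 16713 for Mrc1 (79.0 CPM). In WT at 90 dpi, animal 22184 was apart for Itgax (0.749 CPM), and the shallow animal 21167 for Tyrobp (0 CPM) and Cd68 (28.4 CPM from 3 counts).

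Among sets of 10-cell libraries, male set 2 was apart for Gpnmb at 12 dpi (3.81 CPM) and for Itgax at 90 dpi (61.9 CPM), and male set 1 for Gpnmb at 90 dpi (51.0 CPM). Among pool-and-split sets at 12 dpi, female set 1 was apart for Itgax (2.20 CPM) and Lgals3 (84.5 CPM) and male set 1 for Gpnmb (3.62 CPM). Among those at 90 dpi, male set 1 was apart for Cd68 (204 CPM), Lgals3 (180.0 CPM) and Mrc1 (4.40 CPM), and male set 2 for Gpnmb (18.4 CPM) and Spp1 (108.5 CPM).

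The effect of genotype differed between 90 and 150 dpi by edgeR's test of the difference itself for 7 genes: Gpnmb (4.94), Apoe (1.34), Trem2 (2.02), Tyrobp (1.90), Cd68 (2.34), Itgax (4.95) and Lgals3 (9.29, with the WT group at 0), all on the log2 scale. The later mutant group consists of tumours and the earlier of precursor cells, so time and tissue cannot be told apart in this difference.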

How the results depend on the processing

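Of 4198 values of single members under alternatives, 4186 kept their side of the threshold, 4 lost a call, 8 gained one and 0 called values reversed. Among the 4186 are 142 uncalled values that changed sign. Lost calls not given above were Trem2 in the genotype effect at 150 against 90 dpi with the deepest library (1.74, adjusted p = 0.062), and gained ones against WT were Lpl (DESeq2 0.68, adjusted p = 0.030; RLE size factors 0.68, 0.039) and Mrc1 (DESeq2 1.83, adjusted p = 0.021). Members called were 7, 9 and 7 in the 3 tumour comparisons (WT, CKO, genotype effect) and 4, 5 and 4 with a mean of at least 10 CPM, which tests fewer genes. Leaving out 1 animal gave 7 to 9, 8 to 9 and 6 to 7. Members called stayed at 0 elsewhere.

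Counts over all genes moved more, mostly where few were called. With DESeq2 they were 13 (CKO against WT at 12 dpi, 3 in the fit reported), 18 (at 90 dpi, 8), 2 (CKO over time, 0), 9 (WT 90 against 12 dpi, 1), 20 (WT 150 against 90 dpi, 3), 6 (genotype effect at 90 against 12 dpi, 0), 326 (10-cell sets, 0) and 593 (pool-and-split sets, 0). With the 2 groups alone they were 90, 1, 285 and 6 for CKO against WT at 12 dpi, CKO over time, WT 90 against 12 dpi and WT 150 against 90 dpi. With a mean of at least 10 CPM they were 1 and 4 for CKO against WT at 12 and 90 dpi. Without the sex covariate WT 150 against 90 dpi gave 5, and without a filter the genotype effect at 90 against 12 dpi and the pool-and-split sets gave 1 each. Spread at 12 dpi (2) gave 12 with a pseudocount of 0.1, 0 with 5 and 6 with detection in 90%. Leaving out 1 animal or set gave 2 to 6 and 4 to 9 for CKO against WT at 12 and 90 dpi, 0 to 1 for CKO over time, WT 90 against 12 dpi and the genotype effect at 90 against 12 dpi, 1 to 6 for WT 150 against 90 dpi, and 0 to 5 and 22 to 39 for spread at 12 and 90 dpi (63). The cause was not tested.

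A replicate block of sex and number called 0 genes and 0 members over both kinds of sets. It turned the sign of 3 uncalled changes, Itgax in 10-cell sets (to 2.03) and Tyrobp (0.11 to -0.09) and Lgals3 (-1.37 to 0.31) in pool-and-split sets. With 4 sets a time and genes at 0 in several, these sets bear no direction for the rarer members.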
